A study of Mus musculus with 12 samples.

Results

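The genes described here are the matrix metalloproteinases and their relatives: every gene named Mmp, Adam, Adamts, Adamtsl or Timp followed by its number. The symbol alone chose them, and 61 of the 17365 genes in the count table carried such a name. They comprised 15 Mmp, 18 Adam, 19 Adamts, 5 Adamtsl and 4 Timp genes. Expression was measured by RNA sequencing in adult neural stem cell cultures from the mouse subventricular zone, the stem cell niche along the lateral ventricle, kept as monolayers in 3 conditions for 3 days. EGF/FGF cultures received EGF and FGF2 at 10 ng/ml each and proliferate, BMP cultures received BMP4 at 10 ng/ml without EGF or FGF2, and BMP/FGF cultures received BMP4 and FGF2 at 10 ng/ml each without EGF. The BMP and BMP/FGF conditions are the deep (d-qNSC) and the primed (p-qNSC) quiescent state of the study. 2 lines were used, ANS4 from MF1 mice and BL6 from C57BL/6 mice, both wild type and taken from animals 6 to 8 weeks old, with 2 libraries for each line and condition. Each line is 1 culture, so that line, strain and derivation cannot be told apart. The study calls its replicate libraries biological, but neither it nor the labels say that they came from separate cultures, and the p-values then measure the spread between these libraries only.

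The Mmp, Adam and Adamts genes encode zinc-dependent endopeptidases. Mmp enzymes cleave collagens, laminins and other matrix proteins, most Adam enzymes sit in the cell membrane and shed the outer part of growth factors, cytokines, adhesion molecules and Notch proteins, and Adamts enzymes are secreted and cut proteoglycans, procollagens and other matrix substrates. The Adamtsl proteins resemble Adamts enzymes without the catalytic domain, and some of them bind microfibrils. The 4 Timp proteins are the tissue inhibitors that block the catalytic site. In the subventricular zone, neural stem cells are anchored through cadherins and a laminin-rich matrix, and proteoglycans there bind growth factors such as FGF2.

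Library totals were 18069052 to 19451818 estimated counts. Levels are given as CPM, counts scaled to a common library size,, and 3 counts correspond to 0.155 to 0.168 CPM. Replicate libraries of a group differed by more than sampling noise, most of all those of BL6 in BMP, where the chi-square per degree of freedom was 12.5 against 2.14 to 4.78 in the other groups. All 13 neural stem cell markers examined were detected in every condition, with sums of 8351 to 9067 CPM in EGF/FGF, 10778 to 11897 CPM in BMP and 13717 to 14159 in BMP/FGF. They did not move together, with 8 higher and 5 lower in each quiescent state than in EGF/FGF at an adjusted p below 0.05. Vim had means of 2693, 4687 and 4737 CPM in EGF/FGF, BMP and BMP/FGF. Nes had 569, 126 and 116 CPM in the same order, and Fabp7 had 2410, 476 and 1386. The sum of 12 neuroblast markers was 228 to 269 CPM in EGF/FGF, 724 to 1368 CPM in BMP and 314 to 343 in BMP/FGF. For 12 oligodendrocyte lineage markers it was 237 to 282, 879 to 1153 and 925 to 951 CPM in the same order. Of 12 microglial markers listed, the 6 in the table summed to 13.02 to 18.9, 5.81 to 7.56 and 9.38 to 12.02 CPM. Itgam had means of 9.90, 3.37 and 5.43 CPM in the same order, and Cd68 had 4.12, 1.15 and 2.43. P2ry12 went the other way, with 1.37, 2.15 and 2.41 CPM. Csf1r, a defining microglial receptor, was at 0 in all BMP libraries and averaged at most 0.0388 CPM in the other conditions. The 11 fibroblast and mural markers summed to 9.47 to 11.9, 12.1 to 17.4 and 21.3 to 29.7 CPM, most of it Tagln and Acta2. Of 12 endothelial markers listed, the 10 in the table summed to 39.7 to 47.99, 6.205 to 10.6 and 15.3 to 19.2 CPM. Flt1 made up most of it in EGF/FGF, with means of 39.7, 4.81 and 14.9 CPM in the same order. Kdr was highest in BMP, with 1.71, 3.16 and 1.69 CPM. Slco1a4 was at 0 in EGF/FGF, Ly6c1 in BMP and Emcn in BMP/FGF, and none of them averaged above 0.443 CPM in any condition. Several of these sums moved with the conditions, and their part in the results below was not tested. In such bulk libraries, fewer cells of a type and less RNA per cell cannot be told apart.

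Both quiescent conditions were compared with the proliferating EGF/FGF condition to see which proteases and inhibitors differ between them. BMP cultures differ from EGF/FGF cultures in BMP4, EGF and FGF2, and BMP/FGF cultures differ from them in BMP4 and EGF. The added BMP4, the missing mitogens and the exit from the cell cycle cannot be told apart in these comparisons. The members moved in both directions. Timp2 and Timp3, Mmp24, Mmp11, Adamts5, Adamts13, Adamtsl1 and Adamtsl5 rose in both quiescent states, whereas Adam12, Adam19, Adamts4, Adamts14 and Adamts19 fell in both. 49 members passed the filter on low counts, as did 13312 genes in all, and 12 members did not. In BMP, 19 members were higher and 21 lower than in EGF/FGF at an adjusted p below 0.05, and 9 were not called. Over all tested genes, 79.6% were called in this comparison, 40.8% higher and 38.8% lower, against 81.6% of the tested members, a share near that of genes at large. With a log2 fold change beyond 1.5 as well, 12 members were higher and 9 lower, against 10.9% and 6.95% of all genes. In 17 members all BMP libraries lay above all EGF/FGF libraries and in 21 all lay below, which held for 36.3% and 34.8% of all genes. In BMP/FGF, 19 members were higher, 19 lower and 11 not called, where 78.9% of all genes were called, 40.9% higher and 38.0% lower. Beyond 1.5, 10 members were higher and 9 lower, against 10.6% and 6.08% of all genes. All BMP/FGF libraries lay above EGF/FGF in 19 members and below in 19, as in 39.0% and 36.9% of all genes. The median log2 fold change of the tested members was -0.10 in BMP and 0.07 in BMP/FGF, where all tested genes had 0.02 in each. These comparisons share the EGF/FGF libraries, and their values are therefore given side by side.

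**Figure D1:**
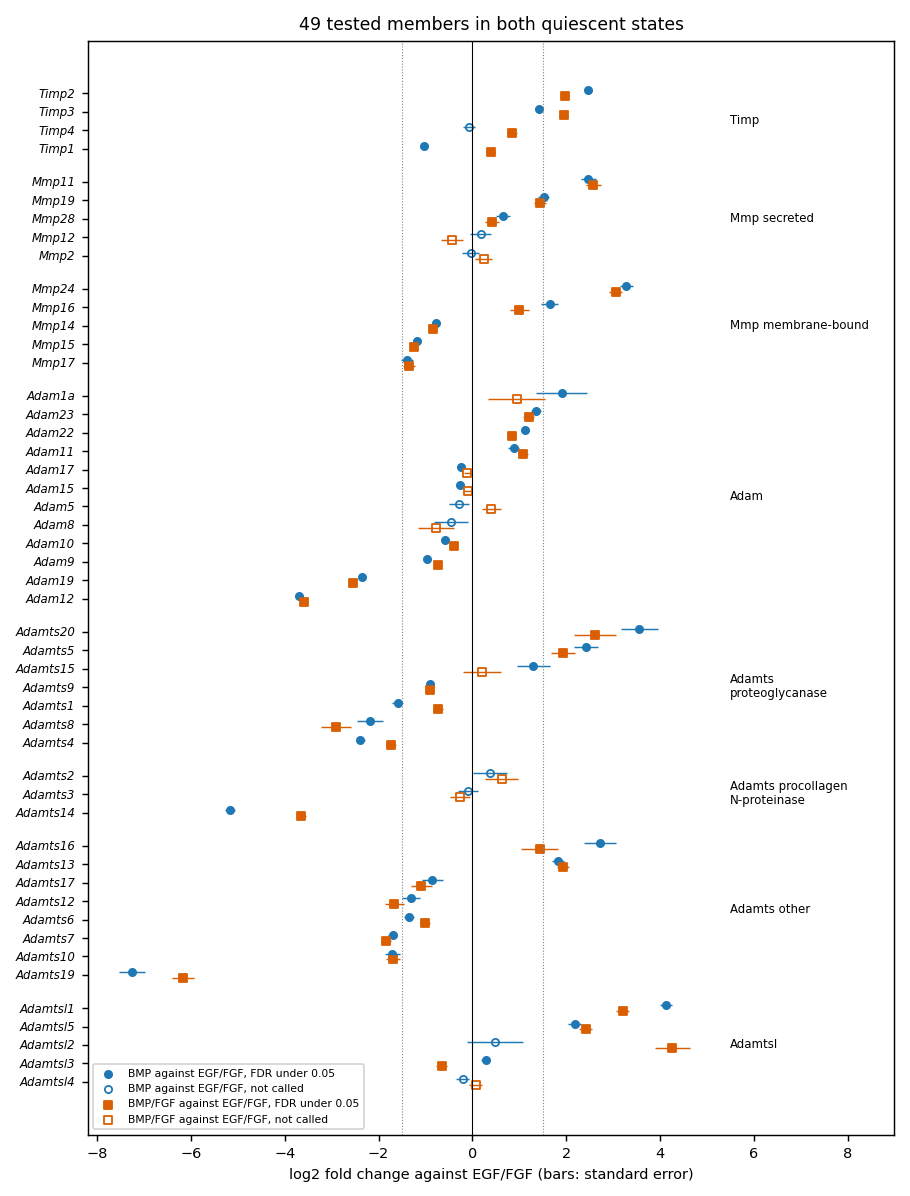
Log2 fold change against EGF/FGF (horizontal axis) of each of the 49 tested members, grouped by class, for BMP (blue circles) and BMP/FGF (orange squares). Bars are standard errors, filled symbols passed an adjusted p of 0.05 and dotted lines mark 1.5 in each direction; members lie on both sides of 0, with 2 of 4 Timp genes higher in BMP and 4 of 4 in BMP/FGF. The point of Adamts19 in BMP is a fitted value from at most 3 counts a library.

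Counts by class, here and below, are read against all tested genes, of which 79.6% were called in BMP and 78.9% in BMP/FGF. Among the 4 inhibitors, 2 were higher, 1 was lower and 1 was not called in BMP, and all 4 were higher in BMP/FGF. The median log2 fold change of the 4 was 0.67 in BMP and 1.39 in BMP/FGF. In the values that follow, the 4 libraries of a condition are always listed as ANS4 replicates 1 and 2, then BL6 replicates 1 and 2. Timp2 (chr11:118301069-118355740 in the GRCm38 build, minus strand) encodes the inhibitor that also takes part in the activation of pro-MMP2 by MMP14 at the cell surface. It had 276, 267, 231 and 233 CPM in EGF/FGF, 1508, 1385, 1272 and 1367 CPM in BMP and 925, 916, 1072 and 1062 CPM in BMP/FGF. The 3 conditions did not overlap, with BMP highest and BMP/FGF between the others. The log2 fold change was 2.46 ± 0.08 (SE, n = 4 libraries a condition), adjusted p = 1.78e-14 in BMP and 1.98 ± 0.08, adjusted p = 2.36e-13 in BMP/FGF, or 5.498-fold higher and 3.96-fold higher. Between the quiescent states it was -0.47 ± 0.08, adjusted p = 0.000133 for BMP/FGF against BMP.

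Timp3 (chr10:86300372-86349506, plus strand) encodes an inhibitor that binds the extracellular matrix and also blocks ADAM17 and several ADAMTS enzymes. Its levels were 77.7, 75.5, 60.8 and 60.96 CPM in EGF/FGF, 232, 214, 149 and 145 CPM in BMP and 264, 266, 258 and 259.9 CPM in BMP/FGF. All BMP libraries lay above all EGF/FGF libraries, all BMP/FGF libraries lay above both, and within BMP the ANS4 libraries were higher than those of BL6. The changes from EGF/FGF were 1.41 ± 0.09, adjusted p = 7.12e-11 in BMP and 1.94 ± 0.09, adjusted p = 1.04e-12 in BMP/FGF on the log2 scale, and BMP/FGF against BMP gave 0.53 ± 0.09, adjusted p = 9.83e-05. It was the only member called higher in all 3 comparisons. Timp3 shares 1733 exon bases with Syn3 on the opposite strand, and whether counting used strand is not given in the sources used here, so that reads of the 2 genes may be mixed. Syn3 itself ranged over 4.03 to 5.36 CPM in EGF/FGF, 13.4 to 15.6 CPM under BMP and 10.2 to 11.4 CPM under BMP/FGF.

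Timp1 (chrX:20870166-20874735, plus strand), an inhibitor that many cells induce in response to cytokines, changed in opposite directions in the 2 quiescent states. The libraries had 30.4, 29.8, 25.3 and 29.4 CPM in EGF/FGF, 13.9, 14.8, 13.2 and 14.4 in BMP and 34.2, 36.8, 39.8 and 40.8 in BMP/FGF. Every BMP library lay below and every BMP/FGF library above the EGF/FGF range. Its log2 fold change was -1.03 ± 0.08, adjusted p = 3.25e-09 in BMP and 0.40 ± 0.08, adjusted p = 0.00018 in BMP/FGF, while BMP/FGF exceeded BMP by 1.43 ± 0.08, adjusted p = 1.49e-09. Timp4 (chr6:115241892-115252205, minus strand), an inhibitor known from brain and heart, had 15.5, 12.97, 11.2 and 14.3 CPM in EGF/FGF, 10.6, 11.3, 13.6 and 16.01 in BMP and 23.5, 23.02, 24.7 and 25.8 in BMP/FGF. The EGF/FGF and BMP libraries overlapped, and the BMP/FGF libraries lay above both. For Timp4 the log2 fold change was -0.07 ± 0.12, adjusted p = 0.581 in BMP, 0.84 ± 0.11, adjusted p = 2.33e-06 in BMP/FGF and 0.91 ± 0.11, adjusted p = 7.27e-06 between the quiescent states. It shares 90 exon bases on the opposite strand with Syn2, with 32.5 to 46.2 CPM in EGF/FGF, 92.5 to 108 CPM under BMP and 94.4 to 101 CPM under BMP/FGF, above Timp4 in each condition.

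**Figure D2:**
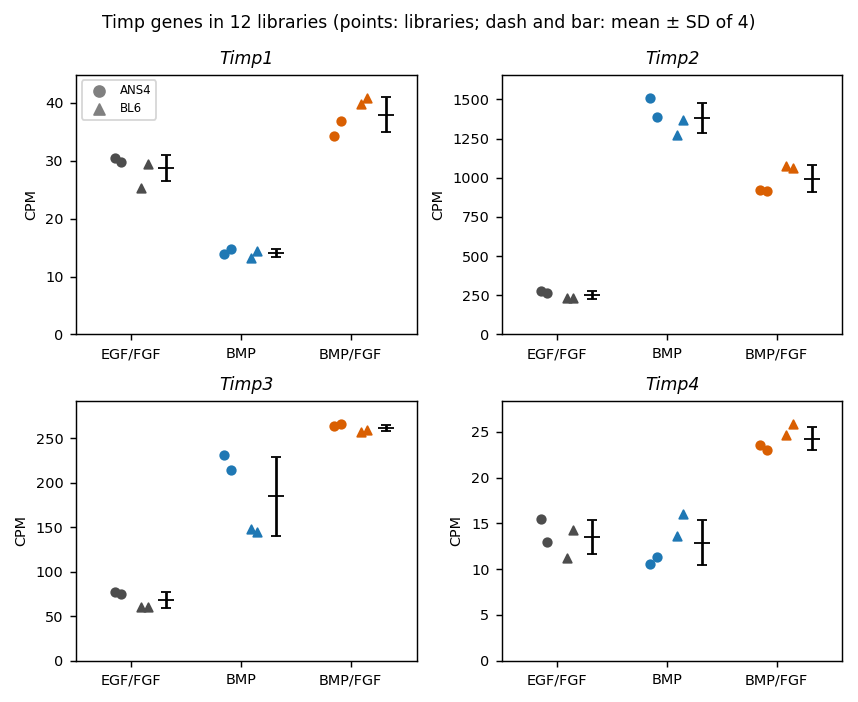
CPM (vertical axis, from 0) of the 4 Timp genes in the 3 conditions; each point is 1 library, circles ANS4 and triangles BL6, with the mean ± SD of 4 libraries beside them. Timp2 is highest in BMP at 1383 ± 97.04 CPM, and Timp1, Timp3 and Timp4 are highest in BMP/FGF at 37.9 ± 2.996, 262 ± 3.71 and 24.3 ± 1.24 CPM.

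To compare levels between genes, CPM were divided by the length of each gene's longest protein-coding transcript. On this scale Adam10 led the members in EGF/FGF with 106 ± 4.46 CPM per kb (mean ± SD, n = 4), which did not exceed Mmp14 at 100.0 ± 2.98 by more than their spread. Mmp15 with 88.5 ± 2.94 and Adam9 with 76.2 ± 3.28 CPM per kb came next, and Timp2 followed in the fifth place with 67.9 ± 6.32. This order depends on the length used. Adam10 had a longest transcript of 4593 bases and a median of 2608, and Adam12 had 7675 and 2069.5. The order of the members was not repeated with median lengths. In BMP and BMP/FGF Timp2 led, with 373 ± 26.2 and 268 ± 22.9 CPM per kb, and Adam10 came after it with 70.7 ± 4.46 and 81.3 ± 6.32. Timp1, a short transcript, had 32.5 ± 2.59, 15.9 ± 0.776 and 42.9 ± 3.39 CPM per kb in EGF/FGF, BMP and BMP/FGF. The 4 Timp genes together made up 15.9 ± 1.26% of the summed level of all 61 members in EGF/FGF, 56.1 ± 1.96% in BMP and 50.8 ± 1.15% in BMP/FGF. The libraries of EGF/FGF did not overlap with those of either quiescent state in this share. Timp2 alone made up 9.16 ± 0.765%, 48.6 ± 1.33% and 36.7 ± 1.46%. With Timp2 left out of the sum, the other 3 inhibitors made up 7.37 ± 0.649%, 14.6 ± 2.01% and 22.3 ± 0.223%. The summed level of all members other than the inhibitors was 623 ± 5.28 CPM per kb in EGF/FGF, 336 ± 2.54 in BMP and 359 ± 8.33 in BMP/FGF. Shares are descriptions of RNA and carry no test.

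Of the 6 membrane-type Mmp genes, 5 were tested and all 5 were called in both quiescent states, 2 higher and 3 lower (median log2 fold change -0.78 in BMP and -0.84 in BMP/FGF). Of all tested genes, 79.6% were called in BMP and 78.9% in BMP/FGF. Mmp24 encodes MT5-MMP, a nervous system protease known to cleave N-cadherin in neural stem cells. It had 1.19, 1.96, 1.87 and 1.19 CPM in EGF/FGF, 14.6, 15.5, 14.3 and 16.4 in BMP and 13.04, 12.7, 12.3 and 13.9 in BMP/FGF. The EGF/FGF libraries lay far below all others, and the BMP/FGF libraries lay just below those of BMP. On the log2 scale it changed by 3.28 ± 0.14, adjusted p = 3.97e-13 in BMP and 3.06 ± 0.14, adjusted p = 1.28e-12 in BMP/FGF, and BMP/FGF against BMP was not called (-0.23 ± 0.11, adjusted p = 0.101). Mmp24 shares 637 exon bases on the opposite strand with BC029722, with 13.6 to 16.7 CPM in EGF/FGF, 22.1 to 24.3 CPM under BMP and 25.8 to 28.7 CPM under BMP/FGF, a level above that of Mmp24 in each condition, so that here too reads of both may be mixed. Mmp16, encoding MT3-MMP, had 1.29, 0.982, 1.51 and 1.39 CPM in EGF/FGF, 3.26, 2.99, 5.55 and 4.59 in BMP and 2.86, 2.102, 2.68 and 2.68 in BMP/FGF. Its 3 conditions did not overlap, and BMP was highest, with the BL6 libraries of BMP above those of ANS4. The changes were 1.65 ± 0.19, adjusted p = 2.19e-07 in BMP, 1.00 ± 0.20, adjusted p = 0.000157 in BMP/FGF and -0.64 ± 0.17, adjusted p = 0.00544 between the quiescent states. This last call was not kept in ANS4 alone (-0.33, adjusted p = 0.299).

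Mmp14 encodes MT1-MMP, the collagenase at the cell surface that activates pro-MMP2. Its libraries had 312, 328, 335 and 320.3 CPM in EGF/FGF, 197, 200.3, 179.9 and 180.1 in BMP and 185, 187, 177 and 177 in BMP/FGF. Both quiescent states lay below EGF/FGF and overlapped with each other. Its change on the log2 scale was -0.78 ± 0.05, adjusted p = 3.59e-10 in BMP and -0.84 ± 0.05, adjusted p = 1.43e-10 in BMP/FGF. Mmp15, encoding MT2-MMP, fell, with 439 to 472 CPM in the EGF/FGF libraries, 179.9 to 234 under BMP and 188 to 196 under BMP/FGF and log2 fold changes of -1.17 and -1.25. Mmp17, encoding the lipid-anchored MT4-MMP, fell, with 27.9 to 29.4 CPM in the EGF/FGF libraries, 7.804 to 12.9 under BMP and 9.22 to 12.4 under BMP/FGF and log2 fold changes of -1.39 and -1.35. None of these 3 genes was called between the quiescent states, where their log2 fold changes were -0.06, -0.07 and 0.04.

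Of the 9 other Mmp genes, grouped here as secreted without a check of each, 5 were tested. In each quiescent state 3 were called, all of them higher (median of the 5, 0.65 in BMP and 0.42 in BMP/FGF). Mmp11, encoding stromelysin-3, had 2.85, 2.58, 1.87 and 2.84 CPM in EGF/FGF, 12.04, 10.8, 14.5 and 19.5 in BMP and 14.01, 14.1, 17.2 and 15.8 in BMP/FGF. All quiescent libraries lay above EGF/FGF, and the quiescent states overlapped. This gave a log2 fold change of 2.47 ± 0.16, adjusted p = 1.10e-10 in BMP and 2.58 ± 0.16, adjusted p = 5.91e-11 in BMP/FGF. Mmp19, which encodes a secreted protease of basement membrane proteins, had 5.28, 6.72, 7.34 and 5.84 CPM in EGF/FGF, 20.3, 21.3, 14.98 and 16.01 in BMP and 18.2, 15.7, 16.8 and 17.5 in BMP/FGF. Here too the quiescent libraries lay above EGF/FGF and overlapped with each other. The changes were 1.52 ± 0.12, adjusted p = 2.84e-09 and 1.43 ± 0.12, adjusted p = 7.16e-09. Mmp19 shares 789 exon bases on the opposite strand with Tmem198b, with 39.7 to 43.5 CPM in EGF/FGF, 41.7 to 50.2 CPM under BMP and 58.3 to 62.4 CPM under BMP/FGF, which is above Mmp19 throughout. Mmp11 shares 155 such bases with Chchd10, with 1.25 to 2.58 CPM in EGF/FGF, 5.41 to 10.5 CPM under BMP and 4.58 to 9.16 CPM under BMP/FGF. How reads were divided between these pairs was not tested. Mmp28 was called higher in both states with smaller changes, 0.65 and 0.42 on the log2 scale. Mmp2, encoding gelatinase A, had 1.86, 2.27, 1.41 and 1.602 CPM in EGF/FGF, 1.88, 1.72, 1.56 and 1.77 in BMP and 2.59, 2.05, 2.07 and 1.73 in BMP/FGF. Its conditions overlapped, and it was called in no comparison (log2 fold changes -0.04 ± 0.18, adjusted p = 0.857 in BMP and 0.24 ± 0.18, adjusted p = 0.222 in BMP/FGF). Mmp9, encoding gelatinase B, did not pass the filter and had at most 0.498 CPM in any library.

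Of the 18 Adam genes 12 were tested, 4 of them higher and 6 lower in BMP. In BMP/FGF, 3 were higher and 4 lower, and the median log2 fold change of the 12 was -0.27 in BMP and -0.10 in BMP/FGF. The largest falls were those of Adam12 and Adam19, which encode the related meltrins alpha and beta. Adam12 had 254, 253, 301 and 305 CPM in EGF/FGF, 18.5, 18.3, 26.5 and 23.05 in BMP and 21.7, 23.4, 24.7 and 21.7 in BMP/FGF. The EGF/FGF libraries stood apart from all others, and the quiescent states overlapped. In log2 units the change was -3.69 ± 0.08, adjusted p = 1.14e-16 in BMP and -3.60 ± 0.08, adjusted p = 2.09e-16 in BMP/FGF, or 12.9-fold lower and 12.1-fold lower. Adam19, whose product can shed neuregulin, had 157, 163, 164 and 162 CPM in EGF/FGF, 26.4, 30.996, 34.3 and 35.6 in BMP and 25.5, 25.98, 29.6 and 29.3 in BMP/FGF. Quiescent libraries lay below EGF/FGF throughout. The changes were -2.35 ± 0.07, adjusted p = 2.66e-15 in BMP and -2.55 ± 0.07, adjusted p = 1.37e-15 in BMP/FGF, with a further -0.21 ± 0.07, adjusted p = 0.0271 in BMP/FGF against BMP. That last call was lost in 7 of the alternative analyses, with adjusted p up to 0.166.

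The main sheddases changed less. Adam10, whose product cleaves Notch receptors and the amyloid precursor protein, had 486, 461, 489.9 and 510.5 CPM in EGF/FGF, 341, 325, 338 and 296 in BMP and 341, 358, 394 and 402 in BMP/FGF. All quiescent libraries lay below EGF/FGF, and the lowest BMP/FGF library was level with the highest BMP library. The log2 fold change was -0.58 ± 0.07, adjusted p = 2.15e-07 in BMP and -0.38 ± 0.07, adjusted p = 3.49e-05 in BMP/FGF, and between the quiescent states 0.20 ± 0.07, adjusted p = 0.0218, a call lost in 4 alternatives. Adam17 encodes TACE, the main sheddase of EGF receptor ligands and tumour necrosis factor. Its libraries had 114, 111, 113 and 109 CPM in EGF/FGF, 102, 106, 86.1 and 81.96 in BMP and 97.7, 102, 110.5 and 104 in BMP/FGF. BMP lay below EGF/FGF and BMP/FGF overlapped with both. Its log2 fold change was -0.25 ± 0.07, adjusted p = 0.00417 in BMP and -0.10 ± 0.07, adjusted p = 0.193 in BMP/FGF. The call in BMP did not hold in ANS4 alone, and Adam17 shares 311 exon bases with Iah1 on the opposite strand. Adam9, another membrane sheddase, fell, with 294 to 320.5 CPM in the EGF/FGF libraries, 146 to 165 under BMP and 182 to 189 under BMP/FGF and log2 fold changes of -0.96 and -0.73. Adam15 was called lower in BMP at -0.26 and not called in BMP/FGF at -0.10.

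Adam11, Adam22 and Adam23 encode the neuronal Adam proteins that lack protease activity and bind secreted LGI proteins, and all 3 rose in both quiescent states. Adam23 had 18.997, 19.2, 15.98 and 14.6 CPM in EGF/FGF, 54.4, 53.8, 33.8 and 35.4 in BMP and 37.7, 38.8, 40.4 and 39.3 in BMP/FGF. Every quiescent library lay above EGF/FGF, and in BMP the ANS4 libraries lay above BMP/FGF and the BL6 libraries below it. On the log2 scale it changed by 1.35 ± 0.11, adjusted p = 2.53e-09 in BMP and 1.20 ± 0.11, adjusted p = 1.55e-08 in BMP/FGF. Adam11 had 9.37, 7.96, 10.1 and 10.3 CPM in EGF/FGF, 19.05, 20.3, 14.6 and 16.1 in BMP and 21.99, 21.7, 19.2 and 17.5 in BMP/FGF. Its quiescent libraries lay above EGF/FGF, and among those of BMP the BL6 libraries were lower than the ANS4 libraries. The changes were 0.88 ± 0.11, adjusted p = 1.12e-06 and 1.08 ± 0.11, adjusted p = 7.51e-08. Adam22 rose, with 22.2 to 26.8 CPM in the EGF/FGF libraries, 49.2 to 56.2 under BMP and 39.6 to 48.2 under BMP/FGF and log2 fold changes of 1.12 and 0.84. These 3 genes rose beside the sum of the neuroblast markers given above, though not beside each of those markers. Of the 10 tested neuroblast markers, 8 were called up and 2 down under BMP relative to EGF/FGF. Under BMP/FGF, 7 of them were called up and 3 down. The oligodendrocyte lineage sum rose as well, with 8 of its 9 tested markers called up in each quiescent state. Which part either list had in the change of Adam11, Adam22 and Adam23 was not tested. Adam1a was called higher in BMP at 1.91 ± 0.54, adjusted p = 0.00377 from a mean of 0.297 to 1.12 CPM, and its value is uncertain because it shares 1805 exon bases with Mapkapk5 on the same strand.

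All 7 proteoglycan-cleaving Adamts genes were tested and called in BMP, 3 higher and 4 lower, and 6 were called in BMP/FGF, 2 higher and 4 lower. The shares called over all tested genes were 79.6% and 78.9%. The median log2 fold change of the 7 was -0.91 in BMP and -0.74 in BMP/FGF. Adamts4, encoding aggrecanase-1, which also cleaves brevican and versican, had 222, 236, 184 and 189 CPM in EGF/FGF, 32.2, 38.7, 40.1 and 47.2 in BMP and 62.9, 63.1, 64.1 and 58.9 in BMP/FGF. The 3 conditions did not overlap, and BMP was lowest. Its change on the log2 scale was -2.39 ± 0.10, adjusted p = 3.48e-13 in BMP, -1.74 ± 0.10, adjusted p = 1.79e-11 in BMP/FGF and 0.65 ± 0.10, adjusted p = 6.76e-05 between the quiescent states. Adamts1, encoding a related versicanase, had 37.4, 40.001, 34.8 and 37.3 CPM in EGF/FGF, 9.77, 10.8, 16.6 and 12.6 in BMP and 23.01, 21.2, 23.2 and 22.4 in BMP/FGF. It showed the same order of the conditions without overlap. The changes were -1.59 ± 0.11, adjusted p = 4.02e-10 in BMP, -0.74 ± 0.11, adjusted p = 5.85e-06 in BMP/FGF and 0.86 ± 0.12, adjusted p = 1.76e-05 between them. Adamts5, encoding aggrecanase-2, went the other way, with 1.605, 1.71, 0.989 and 1.602 CPM in EGF/FGF, 5.19, 4.705, 12.9 and 10.3 in BMP and 5.55, 5.07, 5.81 and 6.2005 in BMP/FGF. All quiescent libraries lay above EGF/FGF, and the BL6 libraries of BMP stood above all others. This gave a log2 fold change of 2.42 ± 0.25, adjusted p = 6.69e-08 in BMP and 1.93 ± 0.26, adjusted p = 2.12e-06 in BMP/FGF. Adamts8 had 4.04, 4.44, 2.498 and 3.36 CPM in EGF/FGF, 0.718, 1.27, 0.674 and 0.469 in BMP and 0.162, 0.431, 0.726 and 0.559 in BMP/FGF, with both quiescent states below EGF/FGF. Its changes were -2.19 ± 0.28, adjusted p = 1.21e-06 in BMP and -2.91 ± 0.31, adjusted p = 1.23e-07 in BMP/FGF. Adamts9 was lower in both states at -0.91 and -0.90. Adamts20 rose from at most 0.208 CPM in EGF/FGF, with 1.56 to 1.94 CPM under BMP and 0.593 to 1.29 under BMP/FGF, at a mean level below 1 CPM over all libraries.

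Members that neighbour each other in the genome did not always change together. Among the 61 members, 8 pairs lie within 200 kb of each other on the same chromosome. Adamts1 (chr16:85793827-85803113, GRCm38) and Adamts5 (chr16:85856173-85901828) lie 53.1 kb apart on the minus strand, and Adamts1 fell while Adamts5 rose in both quiescent states. Adamts15 (chr9:30899155-30922452) and Adamts8 (chr9:30942562-30963838) lie 20.1 kb apart on opposite strands. Adamts15 was higher in BMP, with 0.207 to 0.414 CPM in EGF/FGF and 0.5702 to 0.775 in BMP, while Adamts8 fell. Adamts13 and Adamtsl2, 69.8 kb apart on chromosome 2, both were higher in BMP/FGF, and Adamts13 alone was called in BMP. The other 5 pairs hold at least 1 gene that did not pass the filter.

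Of the 3 genes for procollagen N-proteinases, the enzymes that trim the amino end of fibrillar procollagens, 1 was called. Adamts14 (chr10:61197112-61273438, minus strand) had 151, 157, 186 and 187 CPM in EGF/FGF, 3.87, 5.37, 4.51 and 5.06 in BMP and 12.8, 14.2, 11.96 and 15.2 in BMP/FGF. The 3 conditions did not overlap, and the BMP/FGF libraries lay far below EGF/FGF and above BMP. In log2 units the change was -5.17 ± 0.10, adjusted p = 3.61e-17 in BMP and -3.65 ± 0.09, adjusted p = 4.92e-16 in BMP/FGF, or 36.1-fold lower and 12.5-fold lower. BMP/FGF exceeded BMP by 1.53 ± 0.11, adjusted p = 1.73e-08, 1 of 2 members beyond 1.5 between the quiescent states. Adamts2 and Adamts3 had log2 fold changes of 0.37 and -0.10 in BMP and 0.63 and -0.26 in BMP/FGF, none of them called.

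All 8 tested genes among the remaining Adamts were called in both quiescent states, 2 higher and 6 lower, where 79.6% and 78.9% of all tested genes were called. Their median log2 fold change was -1.33 in BMP and -1.38 in BMP/FGF. Adamts19 had 15.1, 13.1, 15.5 and 17.7 CPM in EGF/FGF, 0, 0.166, 0.104 and 0.104 in BMP and 0.377, 0.108, 0.224 and 0.112 in BMP/FGF. No BMP library held more than 3 counts, and its level in BMP was at least 95.3-fold lower than in EGF/FGF with 3 counts a library as the floor (adjusted p = 6.47e-14). In BMP/FGF the log2 fold change was -6.17 ± 0.24, adjusted p = 1.09e-13, from at most 7 counts a library. Adamts7, encoding a protease of cartilage oligomeric matrix protein, had 52.1, 52.8, 54.5 and 55.6 CPM in EGF/FGF, 14.5, 13.7, 17.3 and 20.6 in BMP and 16.3, 15.4, 14.6 and 13.5 in BMP/FGF. Both quiescent states lay below EGF/FGF. The changes were -1.70 ± 0.10, adjusted p = 2.28e-11 and -1.84 ± 0.10, adjusted p = 9.57e-12. Adamts12, its close relative, had 4.76, 3.67, 4.48 and 4.03 CPM in EGF/FGF, 2.04, 1.27, 2.07 and 1.41 in BMP and 1.51, 1.35, 1.45 and 1.01 in BMP/FGF. Its quiescent libraries were all below those of EGF/FGF, at -1.31 ± 0.19, adjusted p = 4.80e-06 and -1.67 ± 0.20, adjusted p = 4.53e-07. Adamts10, linked to fibrillin microfibrils, had 6.78, 7.96, 11.5 and 12.8 CPM in EGF/FGF, 2.04, 2.16, 3.89 and 3.86 in BMP and 2.96, 3.02, 2.96 and 2.79 in BMP/FGF, with BL6 above ANS4 in EGF/FGF and in BMP. Its changes were -1.70 ± 0.16, adjusted p = 1.36e-08 and -1.70 ± 0.16, adjusted p = 1.74e-08. Adamts6 and Adamts17 were lower as well, with log2 fold changes between -1.35 and -0.86.

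Adamts13 and Adamts16 rose. Adamts13, encoding the protease that cleaves von Willebrand factor, had 3.21, 3.72, 3.43 and 2.94 CPM in EGF/FGF, 12.9, 9.69, 12.8 and 12.1 in BMP and 12.1, 12.3, 12.1 and 14.6 in BMP/FGF. The quiescent libraries lay above EGF/FGF and overlapped with each other. The log2 fold change was 1.83 ± 0.12, adjusted p = 2.30e-10 in BMP and 1.94 ± 0.12, adjusted p = 1.08e-10 in BMP/FGF. Adamts16 had 0.414, 0.413, 0.468 and 0.258 CPM in EGF/FGF, 1.601, 1.44, 3.42 and 4.28 in BMP and 1.401, 0.539, 1.01 and 1.28 in BMP/FGF. Its conditions did not overlap, and the BL6 libraries of BMP were the highest. The changes were 2.72 ± 0.34, adjusted p = 9.20e-07 in BMP, 1.43 ± 0.40, adjusted p = 0.00309 in BMP/FGF and -1.29 ± 0.29, adjusted p = 0.0018 between the quiescent states. In ANS4 alone the difference between the quiescent states was not called (-0.64, adjusted p = 0.217).

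**Figure D3:**
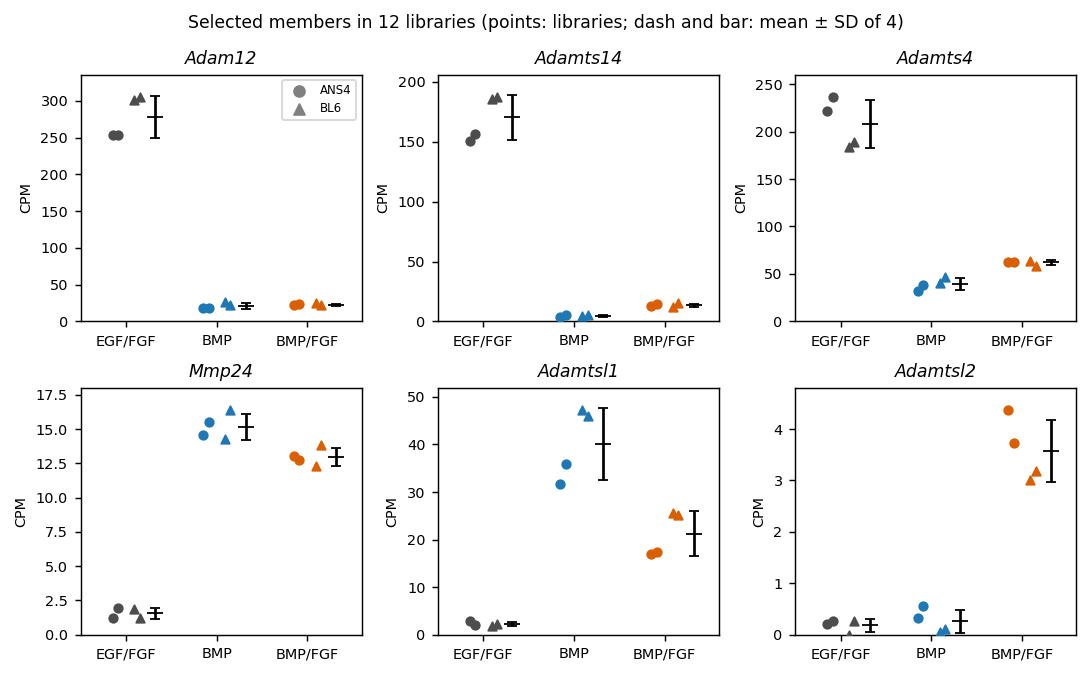
CPM (vertical axis, from 0) of 6 members in the 3 conditions; points are libraries, circles ANS4 and triangles BL6, with the mean ± SD of 4 libraries beside them. Adam12, Adamts14 and Adamts4 are highest in EGF/FGF, Mmp24 and Adamtsl1 in BMP, and Adamtsl2 in BMP/FGF, where its 4 libraries lie between 3.02 and 4.36 CPM.

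Of the 5 Adamtsl genes, 3 were called in BMP, all higher, and 4 in BMP/FGF, 3 higher and 1 lower. The median log2 fold change of the 5 was 0.47 in BMP and 2.42 in BMP/FGF. Adamtsl1, encoding the matrix protein punctin-1, had 2.899, 2.07, 1.82 and 2.27 CPM in EGF/FGF, 31.7, 35.9, 47.2 and 45.9 in BMP and 17.03, 17.4, 25.5 and 25.1 in BMP/FGF. The 3 conditions did not overlap, and BL6 lay above ANS4 in both quiescent states. Its log2 fold change was 4.13 ± 0.14, adjusted p = 1.40e-14 in BMP, 3.21 ± 0.14, adjusted p = 5.75e-13 in BMP/FGF and -0.92 ± 0.10, adjusted p = 2.35e-06 between them, or 17.5-fold higher in BMP than in EGF/FGF. Adamtsl2 (chr2:27079379-27108981, plus strand) encodes a protein that binds fibrillin-1 and the latent TGF-beta binding protein LTBP1. It had 0.207, 0.258, 0 and 0.258 CPM in EGF/FGF, 0.331, 0.554, 0.0518 and 0.104 in BMP and 4.36, 3.72, 3.02 and 3.18 in BMP/FGF. EGF/FGF and BMP overlapped near the detection floor, and all BMP/FGF libraries stood above them. The changes were 0.47 ± 0.60, adjusted p = 0.473 in BMP, 4.27 ± 0.37, adjusted p = 6.89e-09 in BMP/FGF and 3.79 ± 0.35, adjusted p = 2.31e-07 for BMP/FGF against BMP. Adamtsl5, encoding another microfibril-associated protein, had 2.95, 2.64, 1.72 and 2.22 CPM in EGF/FGF, 10.99, 11.1, 9.798 and 11.5 in BMP and 11.9, 11.97, 13.7 and 13.3 in BMP/FGF. The quiescent libraries lay above EGF/FGF, and BMP/FGF lay above BMP by a small margin that was not called (0.23 ± 0.11, adjusted p = 0.109). Its log2 fold change was 2.18 ± 0.14, adjusted p = 7.90e-11 in BMP and 2.42 ± 0.14, adjusted p = 1.78e-11 in BMP/FGF. Adamtsl3 was called higher in BMP at 0.28 and lower in BMP/FGF at -0.66. Adamtsl4 had 5.85, 6.36, 5.36 and 6.1997 CPM in EGF/FGF, 3.98, 4.15, 5.86 and 6.88 in BMP and 4.96, 5.34, 7.54 and 7.49 in BMP/FGF, overlapping in the comparison of BMP with EGF/FGF, and was called in neither quiescent state.

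BMP4 signals through SMAD proteins, and FGF2 is known to activate AP-1 factors. The members' promoters were searched for a motif of each, chosen with the results above known. RefSeq promoters (GRCm38.p6) were held for 38 of the 61 members. The 250 bases before the start were searched on both strands for GGCGCC, a GC-rich element that BMP-activated SMAD proteins bind, and TGANTCA, the AP-1 site; each reads the same on both strands as a pattern, and they share no match with each other. GGCGCC was present in 8 of 38 members (21.1%), where 10.8% of the 27025 genes with a promoter held it. Of the 31 tested members with a promoter, 7 held it. The 27025 genes were not limited to the tested genes and not matched for GC content, so that the shares are not read as an excess. The AP-1 site was present in 3 of 38 members (7.895%) and in 7.82% of all genes. Windows of 30 bases, with the match in capitals and written 5′ to 3′ on the gene's strand, are shown for 4 members that hold the GC element and changed by more than 1.5 in either direction, and for the 2 tested members that hold the AP-1 site.
Adamts14, chr10:61273476-61273505, minus strand: gcccccgcccccGGCGCCcgcgccccccgc
Adam19, chr11:46055923-46055952, plus strand: cctcctccgcgtGGCGCCtcccctcctccc
Mmp11, chr10:75932515-75932544, minus strand: gggtgcggtcccGGCGCCggcgggggcggg
Adamtsl5, chr10:80348509-80348538, minus strand: ctgccgcacgagGGCGCCcttggcctgcgc
Adam19, chr11:46055842-46055871, plus strand: tgtccttcaccTGAGTCAgcgatgctcccg
Mmp12, chr9:7347319-7347348, plus strand: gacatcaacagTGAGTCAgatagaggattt
Adamts14 and Adam19 fell and Mmp11 and Adamtsl5 rose in both quiescent states, with the values given above. Adam17 and Adamts9, which were lower in BMP, Adamts2, which was not called, and Mmp23, which was not tested, held GGCGCC as well. Of the 3 members with an AP-1 site, Adam19 fell, Mmp12 was not called against EGF/FGF, and Mmp13 was not tested. In BMP/FGF against BMP, Mmp12 was called lower at -0.60 ± 0.23, adjusted p = 0.0413. Adam19 was lower there by -0.21 ± 0.07, adjusted p = 0.0271, the call lost in several alternatives above. A match is a run of letters and not a bound site.

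The quiescent states were compared with each other to see what differs when FGF2 is present beside BMP4. Higher in BMP/FGF were Adamtsl2, Adamts14, Timp1, Timp4, Adamts1, Adam5, Adamts4, Timp3, Adamts6, Adam9 and Adam10, and lower were Adamts16, Adamts15, Adamts20, Adamtsl3, Adamtsl1, Mmp16, Mmp12, Timp2, Adam22 and Adam19. These are 11 members higher, 10 lower and 28 not called, where 41.4% of all tested genes were called, 20.1% higher and 21.3% lower. Adamtsl2 and Adamts14 exceeded a log2 fold change of 1.5, which 0.901% of all genes did upwards, and no member fell beyond it by edgeR, where 0.684% did (0 at an unadjusted p under 0.05 and 0 by DESeq2). Adamts14 lay close to that limit, and 1 member was beyond it without replicate 1 of ANS4 or of BL6 in BMP, or without replicate 2 of ANS4 or of BL6 in BMP/FGF. Without replicate 1 of ANS4 in BMP/FGF, 1 member fell beyond it. The BMP/FGF libraries all lay above those of BMP in 12 members and below in 10, against 17.6% and 18.0% of all genes. The median over the members was 0.01 and that over all genes -0.0035. All 4 Timp genes were called between the quiescent states, 3 higher and 1 lower in BMP/FGF. Read together with EGF/FGF, 6 members that fell in both quiescent states were less low in BMP/FGF, namely Adam10, Adam9, Adamts1, Adamts14, Adamts4 and Adamts6. Another 6 that rose in both were less high in BMP/FGF, namely Adam22, Adamts16, Adamts20, Adamtsl1, Mmp16 and Timp2. Timp3 rose further, Adam19 fell further, and Timp1 and Adamtsl3 changed to opposite sides of EGF/FGF in the quiescent states. 9 members were higher and 11 lower in both states without a call between them, Mmp24, Mmp11, Adam12 and Mmp14 among them. Since the comparisons share libraries, these patterns are a description. The libraries of this comparison also differed in the neuroblast markers, whose 10 tested genes were all lower in BMP/FGF than in BMP, and the part of this in the members' values was not tested.

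**Figure D4:**
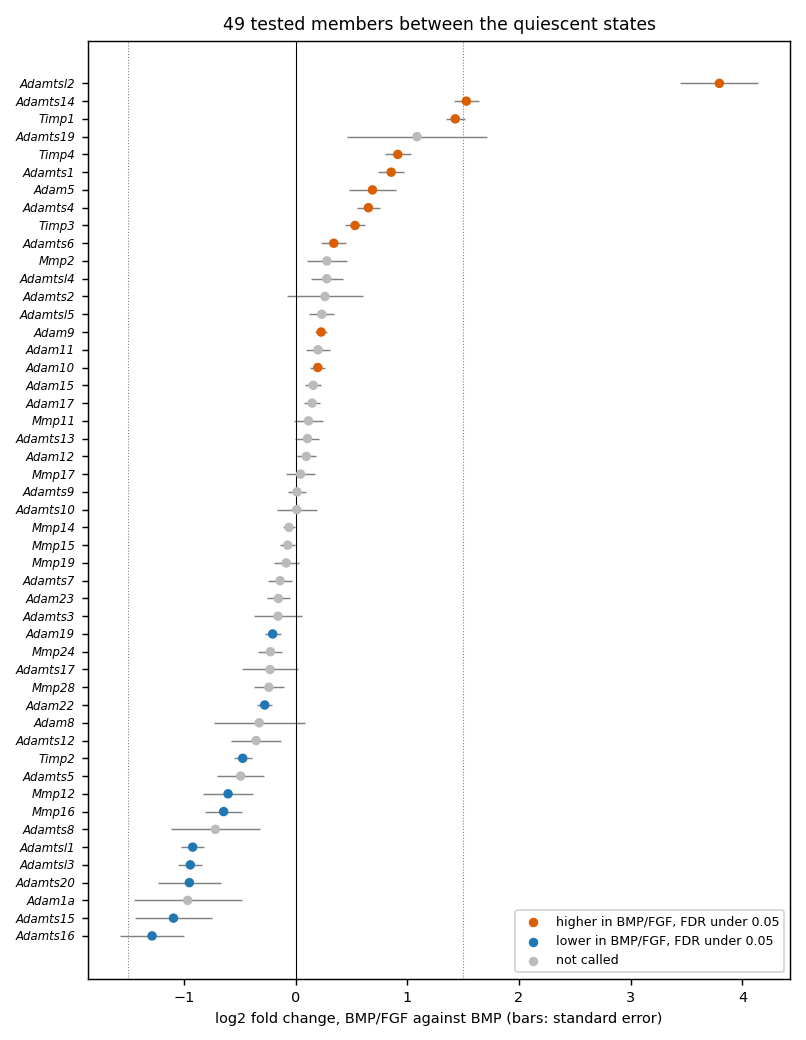
Log2 fold change of BMP/FGF against BMP (horizontal axis) for the 49 tested members, ordered from the highest to the lowest, with standard errors as bars. Orange marks the 11 members higher and blue the 10 lower in BMP/FGF at an adjusted p below 0.05; Adamtsl2 at 3.79 and Adamts14 at 1.53 lie beyond the dotted line at 1.5.

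Since each condition was measured in 2 lines, the change was compared between them. It differed for 5 members in BMP against EGF/FGF, where 9.02% of all genes did, for 1 in BMP/FGF against EGF/FGF (4.98%) and for 8 in BMP/FGF against BMP (13.5%). Timp3 rose from BMP to BMP/FGF by 0.25 in ANS4 and 0.82 in BL6 on the log2 scale, and BL6 had the lower level in BMP (adjusted p of the difference = 0.000394). Timp2 changed over the same step by -0.65 in ANS4 and -0.31 in BL6 (adjusted p = 0.0109), a call lost without replicate 2 of ANS4 in BMP/FGF. Adam23 went down in ANS4, -0.50, and up in BL6, 0.20 (adjusted p = 0.000527). Adamts5 moved by 0.10 in ANS4 and -0.95 in BL6 (adjusted p = 0.00747), and against EGF/FGF its level in BMP was higher by 1.58 in ANS4 and 3.15 in BL6 (adjusted p = 0.00587). Adamts4 changed in BMP against EGF/FGF by -2.69 in ANS4 and -2.09 in BL6 (adjusted p = 0.00609). The count in the first comparison moved with single libraries, with 12 members called without replicate 1 of BL6 in BMP, 2 without replicate 1 of BL6 in EGF/FGF, and 3 without replicate 2 of BL6 in EGF/FGF or, in turn, without replicate 1 of ANS4 in BMP. For BMP/FGF against EGF/FGF, 6 members were called without replicate 1 or without replicate 2 of BL6 in BMP and 2 without replicate 2 of ANS4 in EGF/FGF. For BMP/FGF against BMP, 5 were called without replicate 1 of ANS4 in BMP/FGF. In the level over all conditions, 3 members differed between the lines, where 1.80% of all genes did, 1.07% higher and 0.721% lower in BL6. Timp3 was lower in BL6, at -0.32 ± 0.07 (adjusted p = 0.0311), and Adamts10 and Adamtsl1 were higher in BL6 by 0.55 ± 0.13 and 0.40 ± 0.10 (adjusted p = 0.0406 and 0.0423). The number of such members was 0 to 4 when any 1 library was left out.

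**Figure D5:**
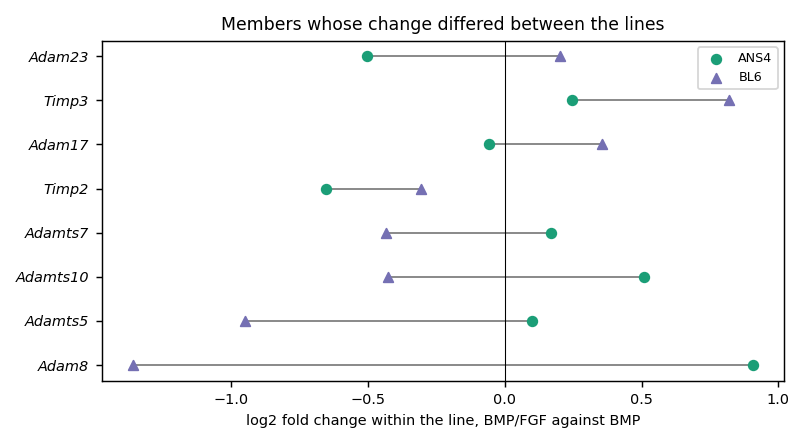
Log2 fold change of BMP/FGF against BMP within ANS4 (circles) and within BL6 (triangles) for the 8 members whose change differed between the lines at an adjusted p below 0.05. Timp3 and Timp2 kept 1 direction in both lines, and the other 6 had opposite signs; each value rests on 2 libraries a condition.

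The proteins around the members were taken from lists of regulators, other proteases and substrates. Their counts are read against all tested genes, of which 40.8% rose and 38.8% fell in BMP, 40.9% and 38.0% in BMP/FGF, and 20.1% and 21.3% in BMP/FGF against BMP. Of 19 tested regulators of metalloproteases, 12 rose and 3 fell in BMP and 12 rose and 5 fell in BMP/FGF, with A2m, the general protease inhibitor alpha-2-macroglobulin, at 109 ± 9.43 CPM in EGF/FGF (mean ± SD, n = 4), 718 ± 12.8 in BMP and 264 ± 31.5 in BMP/FGF. Its log2 fold change was 2.72 ± 0.07, adjusted p = 3.79e-16 in BMP against EGF/FGF and -1.45 ± 0.06, adjusted p = 5.09e-11 in BMP/FGF against BMP. The median log2 fold change of the list was 0.81 in BMP and 0.61 in BMP/FGF, and 4 rose and 7 fell from BMP to BMP/FGF. Tspan17, a tetraspanin that escorts ADAM10, rose on the log2 scale by 2.08 ± 0.11, adjusted p = 6.78e-12 in BMP and 2.47 ± 0.11, adjusted p = 6.48e-13 in BMP/FGF. Of 22 tested substrates shed by Adam enzymes, 12 rose and 6 fell in BMP and 11 rose and 7 fell in BMP/FGF. This list had medians of 0.22 and 0.19, and 5 rose and 9 fell from BMP to BMP/FGF. The EGF receptor ligands Tgfa and Hbegf went in opposite directions in BMP, 2.96 ± 0.23, adjusted p = 1.81e-09 and -1.83 ± 0.07, adjusted p = 1.26e-13. The change differed between the lines for Tgfa in BMP (adjusted p of the difference = 0.0089). For A2m it differed in BMP/FGF against BMP (adjusted p of the difference = 0.0249).

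Of 22 tested proteoglycan matrix genes, 8 rose and 8 fell in BMP and 13 rose and 7 fell in BMP/FGF. Its median was -0.09 in BMP and 0.24 in BMP/FGF, while 10 rose and 4 fell from BMP to BMP/FGF. Tnc, encoding the matrix glycoprotein tenascin-C, had 1700.0 ± 76.9 CPM in EGF/FGF, 12.6 ± 0.7197 in BMP and 16.01 ± 0.559 in BMP/FGF, with log2 fold changes of -7.08 ± 0.08, adjusted p = 2.12e-20 and -6.73 ± 0.08, adjusted p = 3.51e-20. Cspg5, encoding neuroglycan C, rose in BMP/FGF by 2.55 ± 0.10, adjusted p = 1.92e-13, on the log2 scale, and Ncan, encoding neurocan, had a log2 fold change of 1.04 ± 0.08, adjusted p = 1.97e-08 in BMP/FGF against BMP. Of 22 tested microfibril genes, 6 rose and 12 fell in BMP and 9 rose and 12 fell in BMP/FGF. Medians of -0.47 and -0.30 were found for the list, and 7 rose and 4 fell from BMP to BMP/FGF. Ltbp1, encoding the partner of Adamtsl2 named above, had 73.9 ± 9.69 CPM in EGF/FGF, 10.7 ± 1.19 in BMP and 24.2 ± 2.74 in BMP/FGF, and rose by 1.17 ± 0.10, adjusted p = 1.62e-07 between the quiescent states. Fbln2, encoding fibulin-2, had a log2 fold change of -4.28 ± 0.11, adjusted p = 9.66e-16 in BMP. The change differed between the lines for Fbln2 in BMP and for Cspg5 in BMP/FGF (adjusted p of the difference = 0.0246 and 0.0159). For Ltbp1 and Ncan it differed in BMP/FGF against BMP (adjusted p of the difference = 0.0258 and 0.0317). Of 19 tested genes of the plasminogen and serine protease system, 8 rose and 7 fell in BMP and 10 rose and 5 fell in BMP/FGF. The list had a median of 0.06 in BMP and 0.38 with FGF2 added, and 6 rose and 2 fell from BMP to BMP/FGF. Serpina3n, encoding a secreted serine protease inhibitor, rose by 5.22 ± 0.12, adjusted p = 2.62e-16 and 5.54 ± 0.12, adjusted p = 2.08e-16. Plaur, of the same list, fell from 3.37 ± 1.05 CPM in EGF/FGF to 0.0667 ± 0.0652 in BMP and 0.0818 ± 0.0532 in BMP/FGF (adjusted p = 2.81e-10 and 4.31e-10). Both quiescent means of Plaur lie under the level of 3 counts. Of 15 tested genes of other metalloproteases, 4 rose and 8 fell in BMP and 5 rose and 6 fell in BMP/FGF, with Cpe, encoding carboxypeptidase E, higher by 2.23 ± 0.06, adjusted p = 1.18e-15 and 2.02 ± 0.06, adjusted p = 3.81e-15. For this list the medians were -0.40 and -0.02, and 6 rose and 2 fell from BMP to BMP/FGF.

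The 12 members that did not pass the filter were Adam1b, Adam2, Adam4, Adam21, Adam28, Adam32, Adamts18, Mmp9, Mmp13, Mmp23, Mmp25 and Mmp27. None of them exceeded 9 counts in any library. Without the filter, edgeR called 4 of them, each in 1 comparison, and no fold is given for such counts. Mmp13 had 2 to 4 counts a library in EGF/FGF and 0 to 1 in BMP (adjusted p = 0.00888), and Adam4 had 1 to 2 and 0 (adjusted p = 0.0274). Adam2 had 0 to 1 counts a library in BMP and 1 to 4 in BMP/FGF (adjusted p = 0.031), and Mmp23 had 0 to 2 and 1 to 5 (adjusted p = 0.0448). The other 8 were called in none of the 3 comparisons. The 12 include the collagenase Mmp13 and several Adam genes known from the testis and sperm. The 5 members tested but called in none of the 3 comparisons were Adam8, Adamts2, Adamts3, Adamtsl4 and Mmp2, with mean levels over all libraries between 0.532 and 5.83 CPM.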

How the data were processed

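RNA sequencing of 12 libraries was analysed, 4 for each condition. Per the labels and the study's methods, the authors trimmed reads with Trim Galore 0.5.0, quantified transcripts with kallisto 0.44.0 on mm10 and summarised them per gene; the deposited table holds these estimated counts as whole numbers. The authors' table normalised with DESeq2 1.27.32 was not used. Columns were matched to samples by their names.

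Estimated counts were fitted with edgeR 4.0.16 (R 4.3.3) by glmQLFit and glmQLFTest on all 12 libraries, with condition and line as terms, TMM factors of 0.972 to 1.03 and the filterByExpr filter by condition. p-values are two-sided and adjusted by the Benjamini-Hochberg method over the 13312 genes tested, with a threshold of 0.05 and, for large changes, a log2 fold change of 1.5. Line differences in the change came from a model with 1 mean for each line and condition. The test was checked on counts simulated with a fixed spread and few changed genes. These data differ in both, so that the check does not show the error rate here.

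Members and lists were chosen with earlier results of these data known. Values in every library are given for members with a mean of at least 1 CPM that passed both thresholds in any comparison or differed in their change between the lines, for the Timp genes, and for Adam10, Adam17, Mmp2 and Mmp14. From the lists, only genes among the 3 largest called changes of a list in a comparison are named, leaving out those under 1 CPM on average. A gene at 3 counts or fewer in all libraries of a condition is given as a bound. Alternatives were DESeq2 1.42.0, its size factors, library sizes alone, no count filter, no line term, a replicate block, fewer libraries, either line by itself, and leaving out each library in turn.

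Coordinates and transcript lengths are from GENCODE annotation of GRCm38, of which mm10 is the other name, and promoters from RefSeq. A split of the members by the catalytic motif in their proteins was planned and not made, since no protein sequences were used here.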

Additional observations from a re-analysis of the deposited data

Results flagged for a closer look

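2 libraries stood apart from the other 3 of their condition in a named member, by Dixon's test at its 95% critical value. Adamts13 had 14.6 CPM in replicate 2 of BL6 in BMP/FGF, where the others had 12.1 to 12.3. Adamts5 had 0.989 CPM in replicate 1 of BL6 in EGF/FGF, against 1.602 to 1.71 in the others. Among 93 such sets of libraries examined, chance alone marks about 1 in 20.

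The change of some members differed between the lines, with the difference given as the log2 fold change in BL6 minus that in ANS4 (± SE). In BMP against EGF/FGF it was -0.60 ± 0.16 (adjusted p = 0.0258) for Adam11, 0.61 ± 0.16 (adjusted p = 0.0265) for Adamts1, 0.73 ± 0.21 (adjusted p = 0.0427) for Adamtsl4, 1.58 ± 0.32 (adjusted p = 0.00587) for Adamts5 and 0.60 ± 0.12 (adjusted p = 0.00609) for Adamts4. Adam11 and Adamts1 kept their direction in both lines, and Adamtsl4 changed by -0.59 in ANS4 and 0.14 in BL6. Of these, the call for Adamts4 was kept in every alternative run, that for Adamts5 as well, and those for Adam11, Adamts1 and Adamtsl4 were lost in 5, 5 and 14 of 17. In BMP/FGF against EGF/FGF, Timp2 rose more in BL6, by 0.44 ± 0.08 (adjusted p = 0.00611). In BMP/FGF against BMP, the difference was -0.60 ± 0.15 (adjusted p = 0.0117) for Adamts7, 0.41 ± 0.09 (adjusted p = 0.00639) for Adam17, 0.35 ± 0.08 (adjusted p = 0.0109) for Timp2 and 0.57 ± 0.08 (adjusted p = 0.000394) for Timp3. It was -0.94 ± 0.27 (adjusted p = 0.0284) for Adamts10, 0.71 ± 0.11 (adjusted p = 0.000527) for Adam23 and -1.05 ± 0.24 (adjusted p = 0.00747) for Adamts5. Adamts10 lost its call in 7 of 17 alternatives and Adamts7 in 2. Adam8 differed as well, -2.27 ± 0.67 (adjusted p = 0.0309), at a mean below 1 CPM. Replicate spread was largest in BL6 in BMP, a group that enters 13 of these 14 differences, and its part in them was not tested.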

How the results depend on the processing

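For the named members, 81 values past the threshold were recomputed in 1649 alternatives, of which 1601 kept direction and call, 48 lost the call and 0 reversed. Leaving out any 1 library gave 18 to 19 members higher and 21 to 22 lower in BMP, 18 to 20 and 19 to 20 in BMP/FGF, and 10 to 11 higher and 8 to 10 lower in BMP/FGF against BMP. It gave 1 to 2 members higher and 0 to 1 lower beyond 1.5 in the last comparison, 2 to 12, 1 to 6 and 5 to 12 members with a line difference in the 3 changes, and 0 to 4 that differed between the lines. Members higher beyond 1.5 in BMP/FGF against BMP were 2, and 1 with library sizes alone and 4 without the count filter. Members lower beyond 1.5 were 1 in ANS4 alone and 1 in BL6 alone. The change differed between the lines for 2 members (library sizes alone) and 3 (DESeq2) in BMP/FGF against EGF/FGF and for 3 (DESeq2) in BMP against EGF/FGF, and the level for 5 (DESeq2) and 0 (no filter). The cause was not tested.

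Libraries with the same replicate number did not deviate together, with correlations of -0.073 to 0.110 over the 6 pairings. With the replicate number as a block, 19 members were higher and 21 lower in BMP, 19 and 19 in BMP/FGF, 11 and 9 in BMP/FGF against BMP, 5, 1 and 9 had a line difference, and 1 differed between the lines. The numbers mark no shared culture in the labels.

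Reversals were found in values that were not called. Adamts10 in BMP/FGF against BMP went from 0.01 to -0.00237 with DESeq2 size factors, -0.0372 with library sizes alone, -0.0323 without the line term and -0.43 in BL6 alone. In ANS4 alone the log2 fold changes of opposite sign were Adamtsl4 -0.25 for BMP/FGF against EGF/FGF, and Adam17 -0.0558, Adamts5 0.10, Adamts7 0.17 for BMP/FGF against BMP. In BL6 alone the log2 fold changes of opposite sign were Adamtsl2 -0.70, Adamtsl4 0.12, Mmp2 0.13, Timp4 0.20 for BMP against EGF/FGF, and Adam12 -0.0928, Adam23 0.21, Adamts8 0.17, Mmp11 -0.0402, Mmp19 0.15 for BMP/FGF against BMP. Leaving out single libraries gave -0.10 to 0.13 for Adamts10 in that comparison, -0.19 to 0.02895, -0.10 to 0.0548 and -0.0886 to 0.80 for Timp4, Mmp2 and Adamtsl2 in BMP against EGF/FGF, and -0.0555 to 0.17 for Adamtsl4 in BMP/FGF against EGF/FGF.

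With median transcript lengths, chosen after seeing the data, the inhibitors' share was 16.9 ± 1.58% in EGF/FGF, 57.8 ± 2.41% in BMP and 53.2 ± 0.847% in BMP/FGF. Members below 1 CPM rest on few counts, and overlapping genes could not be separated.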
